A study of Mus musculus with 16 samples.

Results

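In spleens of TRaGS mice, CD25+ CD4+ regulatory T cells (Treg) were compared with CD25- CD4+ T cells (CD4 below) of the same animals. These are 8 libraries, 4 Treg and 4 CD4, of the 16 libraries in the series. They were chosen by their labels alone, and the 2 libraries of an animal were paired by the animal number in the labels. The other 8 libraries are the same subsets of 4 wild-type littermates (TRaWT) and serve only to ask where the TRaGS difference departs from theirs. TRaGS is known as a mutation of thyroid hormone receptor alpha, the product of Thra, that keeps the receptor from binding DNA. Both subsets compared here carry it, and the labels do not say on 1 or both alleles. CD4+ cells were enriched with magnetic beads and then sorted on CD25. The labels call the CD25- cells naive, but name no gate besides CD4 and CD25. The mice's age, sex and any treatment were not stated.

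Treg are CD4+ T cells that restrain other immune cells. Their identity rests on the transcription factor FOXP3, and their upkeep on interleukin 2 (IL-2), which they bind with the high-affinity receptor chain CD25, encoded by Il2ra. In lymphoid tissue some resemble resting cells, with the homing receptor CCR7, while others, called effector Treg, carry activation receptors and tissue-homing molecules. CD25- CD4+ cells of the spleen are mostly resting T cells kept quiescent by factors such as KLF2, TCF-1 (Tcf7), LEF1 and FOXO1, with some memory cells among them.

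The libraries hold reads from the 3' ends of polyadenylated transcripts. Values are normalised read counts: whole reads recovered from the deposited values, scaled jointly over the 8 TRaGS libraries. They were compared between subsets, not between genes. Depth was 2679119 to 5095278 reads in the CD4 libraries and 2964210 to 4154027 in the Treg libraries. More genes had a read in Treg (12574 to 13924) than in CD4 (11554 to 12138). The ribosomal RNA-overlapping gene Gm42418 took 20.8% to 35.5% of the reads. Mitochondrial mRNA took 3.71% of reads in the CD4 library of replicate 2, against 1.84% to 2.23% in the other 3 CD4 libraries and 1.34% to 1.82% in Treg. Both libraries of that animal differed most from the others of their subset. The chi-square per degree of freedom was 68.9 to 81.8 in pairs with its CD4 library, against 14.7 to 28.9 in the other CD4 pairs. For its Treg library it was 18.4 to 26.2, against 7.44 to 10.7. Counts without that animal are therefore given beside the gene groups of T cells. A value of 0 does not show absence here, since Pgk1, mt-Co2 and mt-Atp6, which cells of any kind use, were listed at 0 in all 8 libraries.

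The genes that define the sorted cells fitted the labels. Foxp3 (ENSMUSG00000039521, chromosome X, 7573644 to 7595245, GRCm38) stood at 1043, 845, 1213 and 1255 normalised counts in the Treg libraries of replicates 1 to 4 and at 187, 49.9, 174 and 105 in the CD4 libraries. Every Treg library lay above every CD4 library, and the CD4 library of replicate 2 was the lowest. The log2 fold change, Treg minus CD4, was 3.22 ± 0.30 (SE), with a limma adjusted p = 7.75e-23. Il2ra (ENSMUSG00000026770, chromosome 2, 11642807 to 11693193), the gene of the sorting marker, was 1079, 1297, 973 and 952 in Treg and 83.7, 76, 155 and 108 in CD4, which checks the sort and is no finding. Ikzf2 (ENSMUSG00000025997, chromosome 1, 69531214 to 69687245), encoding the transcription factor HELIOS, was 4285, 5069, 5736 and 5508 in Treg and 649, 659, 735 and 875 in CD4 (2.82 ± 0.17, adjusted p = 1.50e-52). Ctla4 (ENSMUSG00000026011, chromosome 1, 60887000 to 60915832), encoding an inhibitory receptor that Treg use, reached only 175, 152, 251 and 426 in Treg and 14, 45, 25 and 44.1 in CD4 (2.95 ± 0.57, adjusted p = 1.98e-05). In both genes the subsets did not overlap. Foxp3, Ikzf2 and Ctla4 were all detected in CD4. In bulk RNA, a few Treg among the CD25- cells and a low level in many cells cannot be told apart.

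Cd4 itself was 858 ± 84.7 against 1225 ± 68.5 normalised counts in Treg against CD4 (mean ± SD, n = 4 each). It was lower in Treg in 4 of 4 animals without overlap and did not pass the test (log2 fold change -0.52 ± 0.20, adjusted p = 0.110). Of the CD3 chains, Cd3d fell in Treg (-0.68 ± 0.17, adjusted p = 0.00307), while Cd3e (-0.35 ± 0.20, adjusted p = 0.318) and Cd3g (-0.36 ± 0.25, adjusted p = 0.432) did not pass. The call of Cd3d was lost without replicate 1 (adjusted p = 0.0853) and under upper-quartile scaling.

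**Figure D1:**
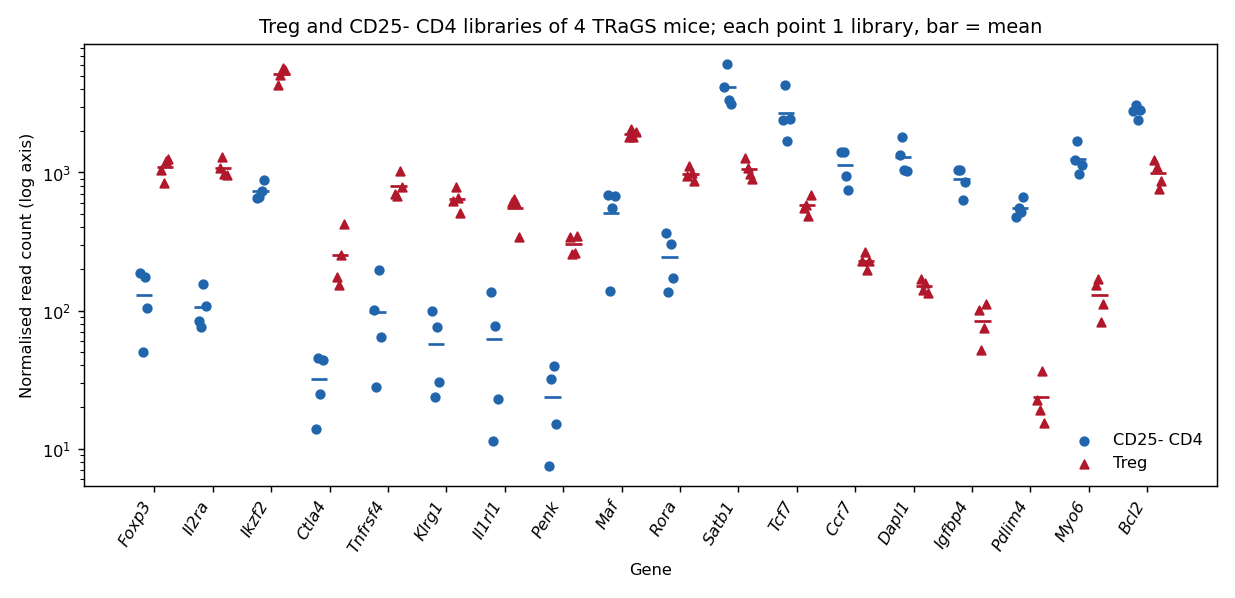
Normalised read count (log axis) of 18 genes in the 4 CD25- CD4 libraries (circles) and the 4 Treg libraries (triangles) of TRaGS mice, with bars at the means. Every gene shown has no overlap between subsets, with Foxp3 through Rora higher in Treg and Satb1 through Bcl2 lower.

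Tested were the 10857 genes whose mean reached 5 normalised counts. Of these, 334 were called higher in Treg (3.08%) and 367 lower (3.38%), at a limma adjusted p under 0.05 with the animal as a block. Together these 701 calls are 6.46% of the genes tested. At this filter the directions differed by size: 293 of the higher calls (2.7% of genes) and 237 of the lower (2.18%) were at least 2-fold. At least 4-fold were 214 against 37. The filter takes the mean over both subsets, so a gene near 0 in CD4 can enter through its Treg counts alone. Without the filter, fewer of the 2-fold calls were higher than lower. With a mean of at least 20, 40.3% of all calls were higher, against 47.6% as fitted. The 4-fold split was not refitted under the alternatives. All 4 Treg libraries lay above all 4 CD4 libraries in 799 genes (7.36%) and below them in 659 (6.07%). The median log2 fold change over all genes tested was 0.13.

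The number of calls depended on the animals and the scaling. Without the animal block 196 genes were called higher and 190 lower. Leaving out replicates 1, 2, 3 and 4 in turn left 118, 307, 124 and 112 genes called higher and 205, 324, 236 and 232 called lower, which put the share of higher calls at 36.5%, 48.7%, 34.4% and 32.6% against 47.6% in all animals. Upper-quartile scaling moved the median of all genes to 0.36 and gave 423 higher and 169 lower calls. The tables as deposited, each scaled by itself, moved it to 0.37 and gave 494 and 180, and quantile normalisation gave 437 and 276. Fold changes below are therefore read against the median of all genes. The fit drew the spread almost wholly from genes of similar level (952 prior against 3 residual degrees of freedom), so an SE does not measure the spread of that gene alone.

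**Figure D2:**
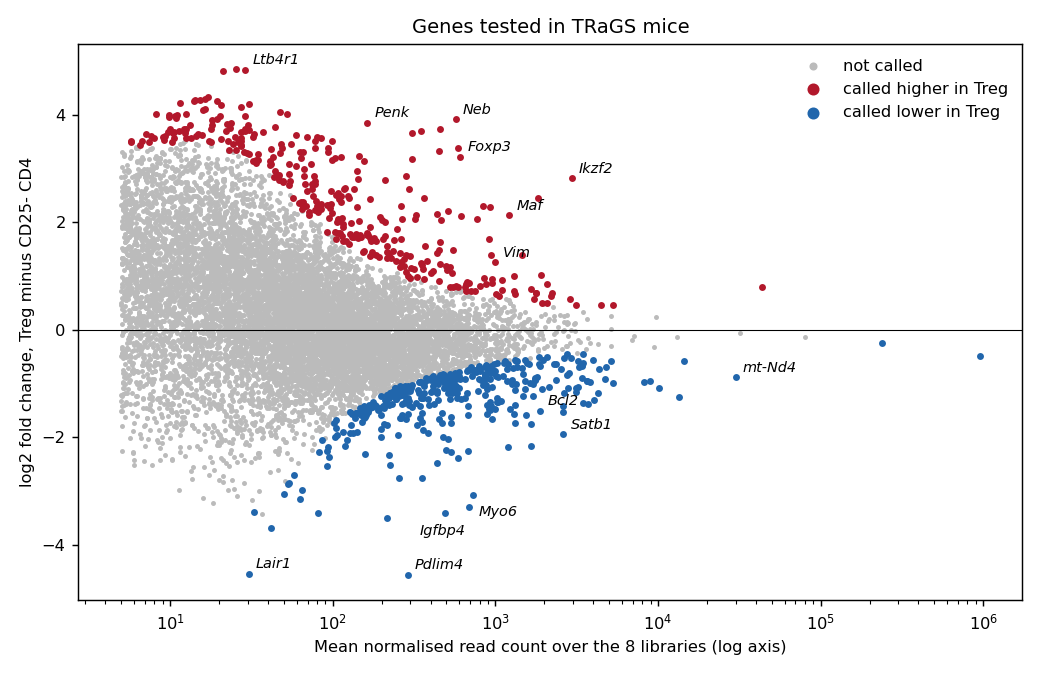
Mean normalised read count over the 8 TRaGS libraries (log axis) and log2 fold change, Treg minus CD25- CD4, for the 10857 genes tested, with called genes in colour. Rises were called at lower mean counts than falls. Foxp3, Ikzf2, Neb, Penk and Maf are among the called rises, and Pdlim4, Igfbp4 and Myo6 among the called falls.

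Among genes of at least 50 normalised counts in the higher subset and without overlap, the largest rises in Treg held muscle-type giant proteins and a neuropeptide precursor. Neb (ENSMUSG00000026950, chromosome 2, 52136647 to 52378474), encoding the sarcomere protein nebulin, was 1041, 734, 1060.0 and 1373 in Treg and 36.5, 28.6, 114 and 165 in CD4 (3.92 ± 0.33, adjusted p = 2.89e-26). Ttn (ENSMUSG00000051747, chromosome 2, 76703980 to 76982547), encoding the sarcomere spring titin, was 781, 619, 841 and 1138 in Treg and 69.8, 25.3, 94.5 and 83.2 in CD4 (3.73 ± 0.36, adjusted p = 2.39e-21). For both genes the lowest Treg library held over 4 times the reads of the highest CD4 library. Penk (ENSMUSG00000045573, chromosome 4, 4133531 to 4138819), the precursor of enkephalin opioid peptides, was 342, 259, 260.3 and 346 in Treg and 7.51, 31.9, 39.8 and 15.1 in CD4 (3.85 ± 0.58, adjusted p = 9.43e-09). Neb, Ttn and Penk kept their calls under all 19 alternatives tried.

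The other genes of that rule were low in CD4. Ltb4r1, the high-affinity receptor for leukotriene B4, was 48.2, 89.7, 9.45 and 82.1 in Treg and 2.15, 0.817, 0 and 0 in CD4 (4.84 ± 1.19, adjusted p = 0.00232). Its Treg libraries spread widely, and without replicate 4 its call was lost (adjusted p = 0.0776). Adap1, a GTPase-activating protein for ARF6, was 90.7 ± 15.8 against 4.64 ± 1.48 (4.05 ± 1.01, adjusted p = 0.00278) and kept its call throughout. Cep112 (4.02), a centrosomal protein, lost its call without replicate 3 (adjusted p = 0.0660), and Kif13a (3.77), a kinesin motor, without replicate 4 (adjusted p = 0.123). Mctp1 (3.98), Myo1c (3.74), Bicd1 (3.72) and Hemk1 (3.70) were called with all animals and lost their calls without replicate 1, 3 or 4, with adjusted p of 0.0672 to 0.154.

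The largest falls held an actin adaptor, the myosin Myo6 (-3.30 ± 0.28, adjusted p = 9.22e-26), described further with the genotypes, and genes of resting T cells. Pdlim4 (ENSMUSG00000020388, chromosome 11, 54054928 to 54069014), a PDZ and LIM domain protein that binds actin filaments, was 22.5, 19.2, 36.7 and 15.4 in Treg and 478, 548, 518 and 668 in CD4 (-4.56 ± 0.49, adjusted p = 2.80e-17). Igfbp4 (ENSMUSG00000017493, chromosome 11, 99041244 to 99054392), encoding a secreted binding protein of insulin-like growth factors, was 100.3, 52, 74.5 and 112 in Treg and 1041, 1049, 636 and 857 in CD4 (-3.42 ± 0.33, adjusted p = 9.19e-21). Dapl1 (ENSMUSG00000026989, chromosome 2, 59484653 to 59505020), a death-associated protein family member, was 169, 141, 157 and 133 in Treg and 1334, 1792, 1047 and 1032 in CD4 (-3.08 ± 0.27, adjusted p = 1.77e-24). These subsets were far apart in every animal. Vipr1, the receptor for vasoactive intestinal peptide, was 45.9, 15.1, 32.5 and 32.8 in Treg and 811, 202, 340.4 and 248 in CD4 (-3.50 ± 0.51, adjusted p = 2.33e-09), with the CD4 library of replicate 1 well above the others.

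Lair1, an inhibitory receptor for collagen, was 1.36 ± 1.07 against 59.5 ± 46.6 (-4.54 ± 1.17, adjusted p = 0.00441). Its CD4 library of replicate 2 was the highest, and without that animal the call was lost (adjusted p = 0.0535). Tdrp was 13.5 ± 5.59 against 148 ± 27.6 (-3.42 ± 0.77, adjusted p = 0.000529) and kept its call throughout. Nacc2, a BTB domain repressor, was called at -3.14 and lost its call without replicate 3 (adjusted p = 0.0733) or 4 (adjusted p = 0.187). Hs3st3b1 (-2.98), a heparan sulfate sulfotransferase, lost its call without replicate 2, 3 or 4. Arhgap29 (-3.06), a GTPase-activating protein, and Ampd1 (-3.40), an AMP deaminase, lost theirs without any of the 4 animals, and Enc1 (-2.85) without replicate 1, 3 or 4. Over those refits the adjusted p of these 4 genes lay between 0.0579 and 0.255 where the call was lost.

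Of 24 genes of the Treg core program, 16 were called higher and 0 lower, and the median log2 fold change was 2.26. The 16 include Il2ra, the gene of the sorting marker. Without replicate 2 the count was 18. Leaving out the other animals left 13 to 16 calls. Here and in the lists that follow, counts are to be read against 3.08% of all genes tested called higher and 3.38% lower. Tnfrsf4, the costimulatory receptor OX40, was 704, 678, 1033 and 783 in Treg and 101, 27.8, 196 and 64.3 in CD4 (3.33 ± 0.34, adjusted p = 1.81e-18). Nrp1, the co-receptor neuropilin 1, was 1159, 1575, 1413 and 1399.5 in Treg and 272, 374, 227 and 256 in CD4 (2.31 ± 0.24, adjusted p = 3.47e-18). In both genes the lowest Treg library lay well above the highest CD4 library. Itgae, the integrin chain CD103, was 157 ± 26.6 against 12.4 ± 3.03 (3.57 ± 0.76, adjusted p = 0.000216), and Ikzf4, encoding the Ikaros family member EOS, was 610.0 ± 35.4 against 113 ± 25.7 (2.45 ± 0.34, adjusted p = 1.22e-10).

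The Treg core members that did not pass were Gpr83 (0.62 ± 0.38, adjusted p = 0.356), Capg (1.18 ± 0.46, adjusted p = 0.110), Nt5e (1.01 ± 0.39, adjusted p = 0.102), Entpd1 (2.18 ± 0.99, adjusted p = 0.187), Tigit (2.10 ± 1.14, adjusted p = 0.291), Nod1 (0.90 ± 0.65, adjusted p = 0.466), Plagl1 (2.65 ± 1.19, adjusted p = 0.182) and Gbp4 (0.53 ± 0.33, adjusted p = 0.367). Nt5e and Entpd1 encode CD73 and CD39, the ectoenzymes that make adenosine. Entpd1 was 51.3, 22.6, 40.9 and 128 in Treg and 5.37, 4.90, 6.83 and 52.9 in CD4, so it was higher in Treg in 4 of 4 animals but overlapped between animals. Socs2, a cytokine-induced suppressor of signalling, was called (2.43 ± 0.64, adjusted p = 0.00621) although its CD4 library of replicate 2, at 182, lay above 3 of the 4 Treg libraries.

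Effector Treg genes gave 13 of 22 called higher and 0 lower, with a median of 2.25. Without replicate 2 the counts were 12 higher and 1 lower. Klrg1 (ENSMUSG00000030114, chromosome 6, 122270596 to 122282882), an inhibitory receptor of terminally differentiated lymphocytes, was 626, 786, 656 and 512 in Treg and 98.8, 23.7, 76.3 and 30.3 in CD4 (3.69 ± 0.40, adjusted p = 4.03e-17). Il1rl1 (ENSMUSG00000026069, chromosome 1, 40429570 to 40465415), the IL-33 receptor ST2, was 611, 641, 605 and 342 in Treg and 136, 11.4, 77.4 and 22.7 in CD4 (3.66 ± 0.43, adjusted p = 1.83e-14). The subsets did not overlap in either gene, and the Treg library of replicate 4 was the lowest for both. Maf (ENSMUSG00000055435, chromosome 8, 115682942 to 115707794), encoding a transcription factor of IL-10-producing T cells, was 1799, 2072, 1808 and 1977 in Treg and 683, 139, 549 and 677 in CD4 (2.14 ± 0.21, adjusted p = 8.76e-20). Its CD4 library of replicate 2 was well below the other CD4 libraries, and the subsets did not overlap. Tnfrsf9, the receptor 4-1BB, was 491 ± 87 against 71 ± 30.1 (2.85 ± 0.39, adjusted p = 1.54e-10), and Icos, a costimulatory receptor, was 1328 ± 273 against 493 ± 268 (1.68 ± 0.23, adjusted p = 8.22e-11). Batf (0.81 ± 0.52, adjusted p = 0.390), Irf4 (1.99 ± 0.86, adjusted p = 0.159) and Myb (0.14 ± 0.56, adjusted p = 0.924), transcription factors of effector Treg, did not pass.

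Of 16 tested suppressor molecules, 8 were called higher and 0 lower, with a median of 2.48. Without replicates 1, 2, 3 and 4 in turn, 3, 7, 2 and 3 were called, and 4 without the filter on low counts. Besides Penk and Ctla4, the members called were Lrrc32 (2.78 ± 0.76, adjusted p = 0.00930), Itgb8 (2.19 ± 0.67, adjusted p = 0.0259), Fgl2 (3.45 ± 0.97, adjusted p = 0.0116), Ebi3 (3.82 ± 1.12, adjusted p = 0.0175), Gzmb (3.60 ± 1.19, adjusted p = 0.0428) and Areg (3.99 ± 1.19, adjusted p = 0.0202). Lrrc32 encodes GARP, which displays latent TGF-beta, and Itgb8 an integrin chain that releases it. Ebi3 is a subunit of IL-27 and IL-35, and was 34.2, 86.2, 47.2 and 56.4 in Treg and 1.07, 1.63, 10.2 and 2.52 in CD4. Its subsets did not overlap, but its call was lost without any of the 4 animals (adjusted p = 0.0561 to 0.126). Il10, encoding the suppressive cytokine IL-10, was 4.67, 0, 18.9 and 16.4 in Treg and 2.15, 0, 0 and 1.26 in CD4 and did not pass (adjusted p = 0.326). Tgfb1 (159.9 ± 48.2 against 102 ± 30.9, adjusted p = 0.467) did not pass either, and Il12a was listed at 0 in all 8 libraries.

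**Figure D3:**
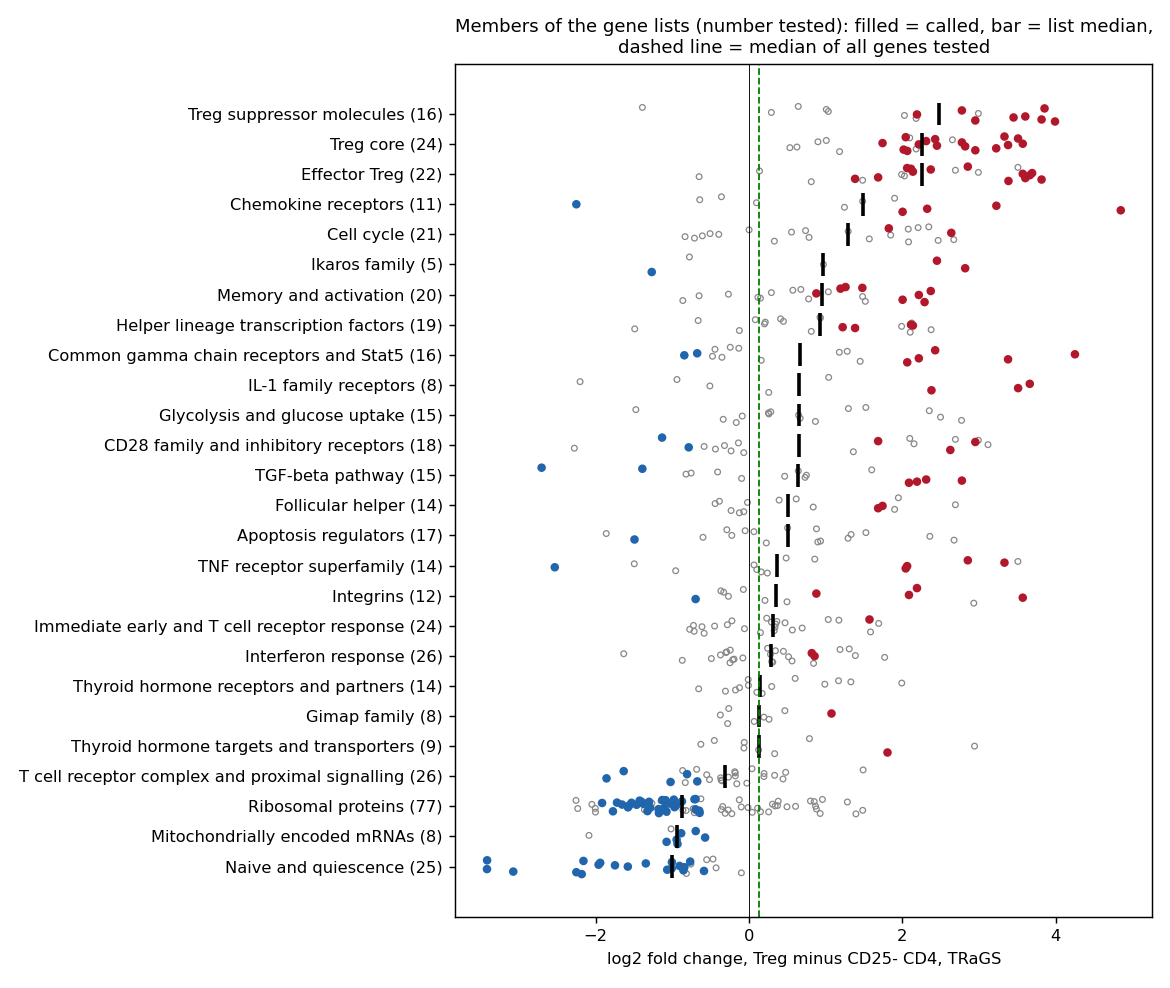
Log2 fold change, Treg minus CD25- CD4, of every tested member of 26 gene lists. Filled points were called, bars are list medians and the dashed line is the median of all genes tested at 0.13. The Treg lists lie furthest right, and the naive, mitochondrial and ribosomal protein lists furthest left.

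Receptors of the IL-2 family split by chain. Il2rb, the chain shared by the IL-2 and IL-15 receptors, was 764, 806, 934 and 743 in Treg and 175, 53.1, 282 and 342 in CD4 (2.21 ± 0.29, adjusted p = 1.62e-11), without overlap. Il7r, the receptor of the survival cytokine IL-7, fell from 2912, 5599, 2640.2 and 3323 in CD4 to 1714, 1969, 1970.0 and 2068 in Treg (-0.84 ± 0.15, adjusted p = 4.56e-06). The common chain Il2rg did not pass (-0.35 ± 0.20, adjusted p = 0.323), and of the kinases Jak1 fell (-0.68 ± 0.14, adjusted p = 0.000186) except under quantile normalisation, where its adjusted p was 0.0834. Cish, an inhibitor induced by STAT5, was 440.1, 514, 449 and 323 in Treg and 90.2, 89.1, 94.5 and 137 in CD4 (2.06 ± 0.37, adjusted p = 2.88e-06). Over the 16 genes of this list 5 rose, among them the sorting marker's gene Il2ra, 2 fell and the median was 0.67. Without replicate 2 the counts were 4 and 2. Without replicate 1 only 3 of the rises were called. Stat5a (-0.13 ± 0.53, adjusted p = 0.920) and Stat5b (-0.25 ± 0.31, adjusted p = 0.702) did not pass.

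Of 14 TNF receptor superfamily genes and adaptors tested, 4 rose and 1 fell, with a median of 0.36 (5 and 1 without replicate 2). The shares called over all genes tested were 3.08% higher and 3.38% lower. Tnfrsf4, Tnfrsf9, Tnfrsf18 (2.04 ± 0.30, adjusted p = 1.89e-09), encoding GITR, and Tnfrsf1b (2.06 ± 0.34, adjusted p = 2.22e-07), encoding TNF receptor 2, were higher in Treg. Tnfrsf1a, encoding TNF receptor 1, was 28, 11, 36.7 and 21.5 in Treg and 176, 315, 74 and 78.2 in CD4 (-2.53 ± 0.69, adjusted p = 0.00880). Thus the 2 TNF receptors were called in opposite directions, but the fall of Tnfrsf1a was not called without replicate 1 (adjusted p = 0.0678) or 2 (adjusted p = 0.0800). Among 8 IL-1 family receptor genes, Il1rl1 rose, and Il1r2 (3.51 ± 1.11, adjusted p = 0.0327), a decoy receptor of IL-1, and Il18rap (2.38 ± 0.75, adjusted p = 0.0318), an IL-18 receptor chain, were called but lost their calls without any of the 4 animals. The list's median was 0.65, and without any 1 of the 4 animals only 1 of its 8 genes, Il1rl1, was called.

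Costimulatory and inhibitory receptors were called in both directions. Of 18 tested, 3 were called higher (Icos, Ctla4 and Cd200r1) and 2 lower (Vsir and Cd28), against 3.08% and 3.38% of all genes tested. Without replicate 2 the counts were 3 and 1. The median of 0.65 turned negative without replicate 4, after thinning to equal depth, or with a mean of at least 20 counts. Vsir, encoding the inhibitory receptor VISTA, was 386, 613, 581 and 400.2 in Treg and 1051, 1260.3, 1179.5 and 824 in CD4 (-1.13 ± 0.23, adjusted p = 5.70e-05). Cd28, the main costimulatory receptor, was 467, 495, 563 and 655 in Treg and 802, 1422, 655 and 1012 in CD4 (-0.79 ± 0.23, adjusted p = 0.0165). Neither overlapped between subsets, though the call of Cd28 was lost without replicate 1, 2 or 4 (adjusted p = 0.0755, 0.0946 and 0.0811) and without the animal block. Cd200r1 (2.63 ± 0.75, adjusted p = 0.0135) lost its call without replicate 3 (adjusted p = 0.214) or 4 (adjusted p = 0.0581). Pdcd1 (2.69 ± 1.16, adjusted p = 0.156), Lag3 (2.99 ± 1.18, adjusted p = 0.113) and Tigit were low and did not pass.

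Among homing receptors, Ccr7 was lower and 4 others were higher in Treg. Ccr7 (ENSMUSG00000037944, chromosome 11, 99144196 to 99155077), which directs cells to T cell zones of lymphoid organs, was 228, 264, 196 and 227 in Treg and 1402, 1417, 944 and 748 in CD4 (-2.25 ± 0.26, adjusted p = 6.79e-15). Ccr6 (ENSMUSG00000040899, chromosome 17, 8236043 to 8257141), a receptor for the mucosal chemokine CCL20, was 170.3, 329.9, 240.3 and 302 in Treg and 32.2, 10.6, 52.4 and 25.2 in CD4 (3.23 ± 0.57, adjusted p = 1.86e-06). Ccr2 (ENSMUSG00000049103, chromosome 9, 124101950 to 124113557), which directs cells to inflamed tissue, was 294, 481, 287 and 277 in Treg and 114, 40.9, 89.9 and 99.6 in CD4 (2.00 ± 0.41, adjusted p = 0.000102). None of these genes overlapped between subsets, and Ccr2 was highest in the Treg library of replicate 2. Ccr3, a receptor for eotaxins, was 64.5, 82.1, 27.3 and 25.7 in Treg and 0, 0.817, 2.28 and 0 in CD4 (4.85 ± 1.19, adjusted p = 0.00225), and its call was lost without replicate 1 (adjusted p = 0.0520). Of 11 chemokine receptor genes tested, 4 were called higher and 1 lower, with a median of 1.48, and the counts were the same without replicate 2. Without replicate 1 only 2 of the rises were called. Ccr4 (2.32 ± 0.66, adjusted p = 0.0127) was the remaining call and overlapped between subsets, since its CD4 library of replicate 4 reached 129.8. Its call was lost without replicate 1 (adjusted p = 0.194) or 3 (adjusted p = 0.0606). Cxcr3 (1.48 ± 0.58, adjusted p = 0.113) and Cxcr5 (1.90 ± 0.80, adjusted p = 0.148) did not pass.

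Of 12 integrin genes, 4 were called higher (Itgae, Itgb1, Itgb8 and Itgav) and 1 lower (Itga6), with a median of 0.35, and without replicate 2 the counts were 3 and 1. Itgb1, the beta 1 chain raised on memory cells, was 1038, 1002, 1534 and 1263 in Treg and 716, 378, 664 and 979 in CD4 (0.88 ± 0.21, adjusted p = 0.00196), and lost its call without replicate 3 (adjusted p = 0.111). Itgav (2.09 ± 0.63, adjusted p = 0.0217) lost its call without any of the 4 animals, Itgb8 without replicate 3 or 4 and Itga6 (-0.70 ± 0.23, adjusted p = 0.0468) without replicate 2, 3 or 4, with adjusted p up to 0.287. Without replicate 3, and without the animal block, 1 integrin gene was called higher, and 2 without replicate 4. Itgae kept its call in every alternative.

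The Ikaros family of zinc finger factors moved in both directions. Ikzf1, encoding IKAROS, was 583, 568, 717 and 543 in Treg and 1541, 1371, 1425 and 1451 in CD4 (-1.27 ± 0.21, adjusted p = 1.97e-07). Its subsets lay far apart and each was narrow. With Ikzf2 and Ikzf4 higher, 2 of 5 members rose and 1 fell, also without replicate 2. Ikzf3, encoding AIOLOS, was 323, 333, 319 and 322 in Treg and 193, 90.7, 205 and 207 in CD4 and did not pass (adjusted p = 0.0765).

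Of 19 helper lineage transcription factors, 4 were called higher and 0 lower, against 3.08% and 3.38% of all genes tested. The median was 0.93, and 6 were called higher without replicate 2. Gata3 (ENSMUSG00000015619, chromosome 2, 9857078 to 9890034), the factor of type 2 helper cells that effector Treg also use, was 1176, 1205, 1644 and 1317 in Treg and 228, 638, 693 and 655 in CD4 (1.38 ± 0.22, adjusted p = 4.91e-08). Rora (ENSMUSG00000032238, chromosome 9, 68653786 to 69388246), a nuclear receptor of tissue Treg and type 17 cells, was 950.2, 1112, 998 and 870.1 in Treg and 363, 136, 304 and 173 in CD4 (2.11 ± 0.27, adjusted p = 1.60e-12). In both genes all Treg libraries were higher, and the CD4 libraries varied more than the Treg libraries relative to their means. Hif1a, the oxygen-responsive factor, was 631 ± 100.5 against 275 ± 80.8 (1.22 ± 0.28, adjusted p = 0.000801), and lost its call without replicate 4 (adjusted p = 0.0604). Tbx21 (0.93 ± 0.99, adjusted p = 0.643), Bcl6 (-0.13 ± 0.50, adjusted p = 0.920) and Runx1 (0.20 ± 0.29, adjusted p = 0.742) did not pass. Of 14 follicular helper genes, Icos and Izumo1r (1.74 ± 0.40, adjusted p = 0.000901) rose, the median was 0.50, and without replicate 2 the count was 3.

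Genes of naive and quiescent T cells were lower in Treg as a group. Of 25, 19 were called lower and 0 higher, all 25 had a negative fold change, and the median was -1.01. The count was 19 without replicate 2 and 17 to 20 over all alternatives. Satb1 (ENSMUSG00000023927, chromosome 17, 51736187 to 51833290), a chromatin organiser, was 1281, 1086, 967 and 902 in Treg and 4147, 6096, 3343 and 3135 in CD4 (-1.94 ± 0.16, adjusted p = 6.28e-27). Tcf7 (ENSMUSG00000000782, chromosome 11, 52252371 to 52283014), encoding TCF-1, was 551, 579.8, 484 and 692 in Treg and 2408, 4311, 1692 and 2444 in CD4 (-2.16 ± 0.19, adjusted p = 1.77e-24). Both were highest in the CD4 library of replicate 2, yet the lowest CD4 library still exceeded the highest Treg library by over 2-fold.

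Lef1, the partner of TCF-1, was 952, 591, 689.5 and 792 in Treg and 2806, 1848, 2809.9 and 2705 in CD4 (-1.75 ± 0.18, adjusted p = 1.03e-17), with replicate 2 here the lowest CD4 library. Klf2, which keeps T cells quiescent and recirculating, was 756 ± 189 against 2348 ± 993 (-1.58 ± 0.19, adjusted p = 5.12e-14). S1pr1, the receptor for exit from lymphoid organs, was 492 ± 65.6 against 1350.3 ± 694 (-1.35 ± 0.22, adjusted p = 2.17e-07). Actn1 (-2.18 ± 0.21, adjusted p = 6.33e-21), an actin crosslinker, fell as well. Bach2 (-0.82 ± 0.29, adjusted p = 0.0719), Il6st (-0.43 ± 0.28, adjusted p = 0.402), Treml2 (-0.47 ± 0.39, adjusted p = 0.530), Tob1 (-0.55 ± 0.58, adjusted p = 0.642), Btg1 (-0.10 ± 0.19, adjusted p = 0.811) and Rapgef4 (-0.76 ± 1.04, adjusted p = 0.728) did not pass.

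Memory and activation genes were partly higher in Treg: 8 of 20 were called higher and 0 lower, with a median of 0.96. Without replicate 2 the counts were 8 higher and 2 lower, and without replicate 3 only 5 were called higher. Ahnak, a giant scaffold protein, was 1708, 1102, 1805 and 1548 in Treg and 318, 193, 430.4 and 345 in CD4 (2.29 ± 0.23, adjusted p = 3.89e-19). Vim (ENSMUSG00000026728, chromosome 2, 13573927 to 13582826), encoding the intermediate filament vimentin, was 1366, 1759, 1308 and 1138 in Treg and 500.2, 982, 510.1 and 434 in CD4 (1.26 ± 0.21, adjusted p = 4.30e-07). S100a6, a calcium-binding protein, was 809 ± 219 against 289 ± 71.1 (1.48 ± 0.27, adjusted p = 3.20e-06). The subsets did not overlap in any of these. Cd44 (0.78 ± 0.35, adjusted p = 0.189), the adhesion receptor used to tell memory from naive cells, did not pass, and neither did Ccl5 (-0.86 ± 0.42, adjusted p = 0.225) or Cd69 (0.15 ± 0.33, adjusted p = 0.846).

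Of 26 genes of the T cell receptor and its signalling, 5 were called lower (Themis, Cd247, Cd3d and Nfatc3 among them) and 0 higher, with a median of -0.31. Among all genes tested 3.38% were called lower and the median was 0.13. Upper-quartile scaling, quantile normalisation and the tables as deposited brought the list's median to between -0.07 and -0.06. The median of all genes was then 0.36, 0.02 and 0.37. Without replicate 2 the counts were 5 lower and 1 higher. Themis, an adaptor of thymic selection, was 183, 118, 165 and 196 in Treg and 569, 412, 679 and 413 in CD4 (-1.63 ± 0.32, adjusted p = 3.74e-05). Its Treg value was the lower one in every animal and its call was kept throughout. Cd247, the zeta chain, was called (-1.02 ± 0.22, adjusted p = 0.000288), and so was Nfatc3 (-0.81 ± 0.21, adjusted p = 0.00642), and without replicate 1 both lost their calls (adjusted p = 0.0659 and 0.0611). Without that animal 2 of the list were called. Of 24 genes induced by receptor stimulation, only Rel, an NF-kappaB subunit needed for Treg, was called higher (555 ± 109.9 against 188 ± 42.7, 1.56 ± 0.31, adjusted p = 3.87e-05) and 0 were called lower, also without replicate 2.

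The shares of genes called below are to be read against the 6.46% called among all genes tested. Of 17 apoptosis regulators, Bcl2 (ENSMUSG00000057329, chromosome 1, 106538178 to 106714274), the survival protein, was called lower, at 1223, 1100.0, 763 and 870.1 in Treg and 2774, 3079.7, 2394 and 2835 in CD4 (-1.50 ± 0.17, adjusted p = 9.20e-15), and 0 were called higher, also without replicate 2. Of 15 TGF-beta pathway genes, 4 were called higher (Nrp1, Lrrc32, Itgav and Itgb8) and 2 lower, the receptor chains Tgfbr2 (-1.39 ± 0.39, adjusted p = 0.0114) and Tgfbr3 (-2.71 ± 0.88, adjusted p = 0.0391). Without replicates 1, 3 and 4 in turn, 2, 1 and 2 of the pathway were called higher. Tgfbr2 lost its call without replicate 4 (adjusted p = 0.112) and without the animal block, and without replicate 2 the pathway had 4 higher calls and 1 lower. Of 21 cell cycle genes, Mki67, a marker of dividing cells, was called higher at 196, 310.1, 176 and 139.5 in Treg and 16.1, 32.7, 51.2 and 32.8 in CD4 (2.64 ± 0.58, adjusted p = 0.000398). Top2a (1.82 ± 0.59, adjusted p = 0.0364) was called too, but overlapped and lost its call without replicate 1, 3 or 4 (adjusted p = 0.224 to 0.242). Without replicate 2 the cell cycle counts were 2 higher and 1 lower. Of 26 interferon response genes, Ly6e (0.85 ± 0.17, adjusted p = 2.34e-05) and Parp14 (0.82 ± 0.25, adjusted p = 0.0267) were called higher, though Parp14 lost its call without replicate 1, 3 or 4 (adjusted p = 0.0512, 0.240 and 0.169). Without replicate 2 the interferon counts were 3 higher and 1 lower. Of 8 genes of the Gimap family of lymphocyte GTPases, Gimap7 (1.07 ± 0.26, adjusted p = 0.00243) was called higher and 0 were called lower, with 1 and 0 called without replicate 2 and 0 without replicate 4. Of 15 glycolysis genes 0 were called by limma, also without replicate 2, and 0 by edgeR, while 5 had an unadjusted limma p under 0.05. The smallest adjusted p was that of Slc2a3, a glucose transporter (1.30 ± 0.53, adjusted p = 0.132). It was called with DESeq2 (adjusted p = 0.0410) and, in limma, with array weights (adjusted p = 0.0236) or quantile normalisation (adjusted p = 0.0315).

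Of 23 tested genes of thyroid hormone action 1 was called, against 6.46% of all genes tested. The lists held 16 receptors and partners and 20 targets and transporters, and the members not tested lay below the count filter. Thra (ENSMUSG00000058756, chromosome 11, 98740638 to 98769006) was 115, 84.2, 109 and 199 normalised counts in Treg and 204, 119, 110.4 and 80.7 in CD4 (-0.01 ± 0.47, adjusted p = 0.993). Thrb, the related receptor, was 15.6, 6.85, 27.3 and 1.03 in Treg and 1.07, 3.27, 5.69 and 22.7 in CD4, and also did not pass (adjusted p = 0.825). The libraries overlapped widely in both. Of 14 receptors, partners and co-regulators tested, 0 were called by limma, also without replicate 2, and 0 by edgeR, while 2 had an unadjusted limma p under 0.05 and the median was 0.14. With DESeq2, and in limma with quantile normalisation, 1 was called higher. Ncor1, the co-repressor that receptors without hormone bind, was 2878 ± 183 against 2965 ± 799 (-0.01 ± 0.15, adjusted p = 0.983). Of 9 targets and transporters, Bcl3 (1.80 ± 0.57, adjusted p = 0.0311) was called higher, but not without replicate 1, 2 or 4 (adjusted p = 0.155, 0.227 and 0.115). Its call was also lost with edgeR (adjusted p = 0.0725), array weights (adjusted p = 0.161), no animal block (adjusted p = 0.102) and no filter on low counts. Over the 19 alternatives 0 to 3 of the 9 were called, and 0 without replicate 2. Klf9, an often used reporter of receptor activity, was 30.3, 32.2, 36.7 and 24.6 in Treg and 2.15, 2.45, 4.55 and 3.78 in CD4 (2.94 ± 1.16, adjusted p = 0.112). It did not pass, although every Treg library lay above every CD4 library.

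The start regions of the called genes were searched for 4 short motifs, 1 for thyroid hormone receptors and 3 for factors of the gene groups above. Windows of 250 bases before the start site came from RefSeq (GRCm38.p6) and matched 8048 of the 10857 genes tested, a gene counting once if any of its windows held the motif. The half-site AGGTCA, which thyroid hormone receptors bind, was found on either strand in 15.8% of the 27025 genes with a window in the RefSeq table, 12.5% of those tested, 10.8% of those called higher and 9.26% of those called lower. The forkhead motif TGTTTAC was in 2.65% of those tested, 4.42% of those called higher and 3.7% of those called lower. The STAT5 motif TTCCNGGAA was in 1.37%, 0.803% and 1.11% of them, and the TCF and LEF motif CTTTGAT in 2.73%, 0.803% and 2.22%. Only 249 genes called higher and 270 called lower had a window. Among these the STAT5 shares rest on 2 and 3 genes and the TCF and LEF shares on 2 and 6. The shares were not tested. In the whole RefSeq table these 3 motifs were in 3.54%, 1.09% and 3.72% of genes. The motifs were counted separately on both strands, and a match describes letters, not binding. These 4 windows, 1 per motif, are from genes described above, with the matched letters in capitals, printed 5' to 3' on the gene's strand.
Ccr6, called higher, AGGTCA on the reverse strand, chr17:8235793-8236042, plus strand: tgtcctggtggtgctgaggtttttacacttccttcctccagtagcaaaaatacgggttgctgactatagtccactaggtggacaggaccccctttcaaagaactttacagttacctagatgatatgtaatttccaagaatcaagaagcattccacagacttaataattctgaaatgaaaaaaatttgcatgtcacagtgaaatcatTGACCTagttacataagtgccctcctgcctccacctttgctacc
Tnfrsf1b, called higher, STAT5 motif, chr4:145246871-145247120, minus strand: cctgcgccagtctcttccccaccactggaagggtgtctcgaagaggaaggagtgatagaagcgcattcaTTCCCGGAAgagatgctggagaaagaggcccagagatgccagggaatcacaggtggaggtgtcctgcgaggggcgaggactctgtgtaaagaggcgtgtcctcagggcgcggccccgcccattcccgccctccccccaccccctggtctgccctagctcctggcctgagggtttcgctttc
Dapl1, called lower, forkhead motif on the reverse strand, chr2:59484403-59484652, plus strand: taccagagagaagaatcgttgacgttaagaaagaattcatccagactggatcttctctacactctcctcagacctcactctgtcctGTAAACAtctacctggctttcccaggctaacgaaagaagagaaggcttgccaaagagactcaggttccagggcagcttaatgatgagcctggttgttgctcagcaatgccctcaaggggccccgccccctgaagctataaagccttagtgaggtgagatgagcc
Cd3d, called lower, TCF and LEF motif on the reverse strand, chr9:44981536-44981785, plus strand: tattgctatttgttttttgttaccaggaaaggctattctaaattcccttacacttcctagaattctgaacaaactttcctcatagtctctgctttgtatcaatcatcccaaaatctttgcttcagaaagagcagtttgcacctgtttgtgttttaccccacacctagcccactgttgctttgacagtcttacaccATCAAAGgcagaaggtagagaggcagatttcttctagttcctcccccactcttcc

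Of 77 ribosomal protein genes tested, 33 were called lower in Treg and 0 higher, 58 had a negative and 19 a positive fold change, the median was -0.88, and without replicate 2 the counts were 31 and 0. Rps19 was 1179.5, 1149, 1207 and 1475 in Treg and 3621, 7259, 2633 and 2450.5 in CD4 (-1.53 ± 0.16, adjusted p = 2.23e-17), and Rpl13a was 2319, 2518, 2196 and 2709 in Treg and 5627, 10981, 3688 and 3974 in CD4 (-1.18 ± 0.14, adjusted p = 7.02e-14). The CD4 library of replicate 2 was the highest for both, and the other 3 CD4 libraries still lay above all Treg libraries. Ribosomal protein mRNAs took 1.72, 2.19, 1.59 and 1.73% of reads in the Treg libraries and 2.92, 3.90, 2.48 and 2.54% in the CD4 libraries. Ribosomal protein genes have near-identical pseudogene copies, so reads of single members may be misplaced.

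Of 8 tested mRNAs encoded in the mitochondrial genome, 6 were called lower and 0 higher, with a median of -0.94, and without replicate 2 the count was 6 and the median -0.71. mt-Nd4, a complex I subunit, was 19792, 23167, 17199 and 20465 in Treg and 33153, 69885, 29668 and 27336 in CD4 (-0.89 ± 0.09, adjusted p = 1.81e-18). mt-Cytb, cytochrome b of complex III, was 6266, 7491, 4553 and 5605 in Treg and 14186, 26724, 8425 and 7401 in CD4 (-1.08 ± 0.11, adjusted p = 2.78e-17). In each the CD4 library of replicate 2 was the highest by far, and mt-Cytb overlapped between subsets because the Treg library of replicate 2 was high as well. The summed share was 1.70, 1.82, 1.34 and 1.62% in Treg and 2.23, 3.71, 1.95 and 1.84% in CD4. It was lower in Treg in 4 of 4 animals, and the exact sign-flip permutation test over 4 animals gave p = 0.125, the smallest it allows. The part of RNA quality in these differences was not tested.

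Markers of other cell types took a small share of reads in both subsets, though single members were not all low. The B cell marker Ighm was at 1114 normalised counts in the CD4 library of replicate 2 and at 618 to 674 in the other CD4 libraries. All 78 markers together took 0.0851% to 0.119% of reads in Treg and 0.0573% to 0.0851% in CD4, higher in Treg in 4 of 4 animals (mean 0.101 ± 0.0178% against 0.0713 ± 0.0113%). The exact sign-flip permutation test gave p = 0.125 and the exact permutation test without pairing p = 0.0286, each the smallest possible. B cell markers alone took 0.0638% to 0.0876% in Treg and 0.0329% to 0.0478% in CD4. Of 16 tested, Ighm, the IgM heavy chain, was called higher (0.92 ± 0.20, adjusted p = 0.000378) and 0 were called lower. Without replicate 2 these counts were 1 and 2, and without replicate 4 Ighm lost its call (adjusted p = 0.0542). Cd79b was 40.4, 32.9, 59.8 and 39 in Treg and 8.59, 3.27, 3.42 and 5.04 in CD4. Without the B and plasma cell lists the share was 0.0193% to 0.0250% in Treg and 0.0226% to 0.0329% in CD4. With the other-cell and sex-linked genes left out of the fit, 331 genes were called higher and 366 lower.

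Some markers that define other cell types were at 0. Ncr1 of NK cells, Adgre1 of macrophages, Mpo of neutrophils and Pf4 of platelets were listed at 0 in all 8 libraries. Cd8a, of CD8 T cells, was 83.2, 56.8, 96.6 and 98.5 in Treg and 91.2, 80.1, 94.5 and 108 in CD4, without a difference that passed (adjusted p = 0.892). Cd8b1, the other marker of that list, was higher, at 193 to 229 in Treg, and did not pass either. Haemoglobin reads concentrated in 1 library: Hbb-bs was 2.15, 205, 2.28 and 3.78 in the CD4 libraries. Of the tested plasma cell, NK cell, macrophage and dendritic cell, and erythroid and platelet markers, 0 were called by limma or edgeR and 1 gene in each list had an unadjusted limma p under 0.05. Eomes, on the NK cell list, was called lower with DESeq2 (adjusted p = 0.0303) and with array weights in limma (adjusted p = 0.0172).

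**Figure D4:**
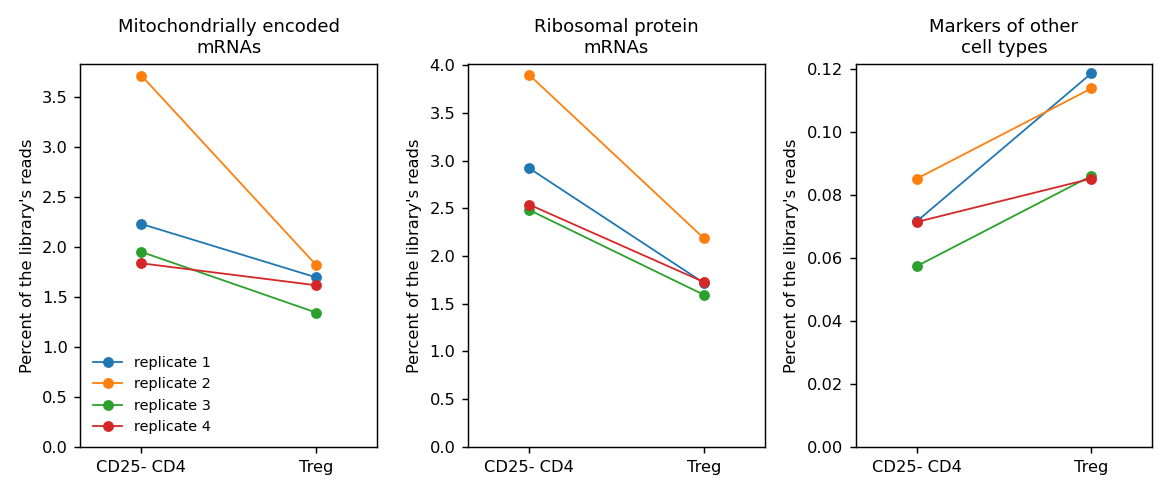
Percent of each library's reads in mitochondrially encoded mRNAs, ribosomal protein mRNAs and markers of other cell types, with a line joining the CD25- CD4 and Treg libraries of each of the 4 TRaGS animals. The first 2 shares are lower and the last is higher in Treg than CD4 in 4 of 4 animals, and replicate 2 holds the highest CD4 value in each panel.

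The TRaGS difference between subsets was then set against that of the wild-type littermates, on values scaled over all 16 libraries. Of 10838 genes tested for a difference between the genotypes' Treg minus CD4 changes, 14 were called (0.129%), 2 with a higher and 12 with a lower value in TRaGS. At an unadjusted p under 0.05 there were 713. Without the animal block 3 were called, without TRaGS replicate 2 there were 11, without TRaWT replicate 1 there were 9 and without TRaGS replicate 4 there were 29. Each genotype was also fitted by itself, on values scaled over its own 8 libraries. Over the 10157 genes tested in both of these fits the log2 fold changes correlated with r = 0.447 (Spearman 0.409). This is a description across genes, which are not independent replicates.

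Bcl2 had the smallest p. In TRaWT it was 1727, 1791, 1454 and 1762 in Treg of replicates 1 to 4 and 1415, 1502, 1196 and 988 in CD4, and on the same scale 1205, 1066, 746 and 847 and 2614, 2791, 2303 and 2726 in TRaGS. Treg thus held more Bcl2 than CD4 in every TRaWT animal and less in every TRaGS animal. The change was 0.41 in TRaWT and -1.45 in TRaGS, a difference of -1.87 ± 0.21, adjusted p = 1.51e-09, and was called under all 23 alternatives.

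Myo6 (ENSMUSG00000033577, chromosome 9, 80165031 to 80311729), an actin motor that moves toward the minus end of filaments, was 56.9, 81.2, 75.9 and 117 in Treg and 147, 125, 198 and 50.2 in CD4 of TRaWT mice. In TRaGS it was 151, 163, 81 and 109 in Treg and 1156, 1525, 935 and 1096 in CD4. The TRaGS CD4 libraries stood apart from the other 3 groups. The difference was -2.71 ± 0.49, adjusted p = 0.000679, from -0.53 in TRaWT to -3.24 in TRaGS.

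Ccr2 went the other way. It was 85.8, 73.9, 96.2 and 126 in Treg and 162, 118, 169 and 131 in CD4 of TRaWT mice, and 289.6, 466, 279.9 and 269.8 and 107, 37, 86.5 and 95.8 in TRaGS. Treg lay below CD4 in every TRaWT animal and above it in every TRaGS animal. The difference was 2.66 ± 0.56, adjusted p = 0.0106, and it was not called without TRaGS replicate 2 (adjusted p = 0.0659) or without TRaWT replicate 1 (adjusted p = 0.0660). Vim, from -0.04 in TRaWT to 1.31 in TRaGS, had a difference of 1.34 ± 0.26, adjusted p = 0.00143.

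Gpr83, an orphan receptor that marks Treg, was 362, 404, 454 and 436 in Treg and 37.5, 29.7, 66.6 and 79.8 in CD4 of TRaWT mice. In TRaGS it was 301, 368, 213 and 138 and 164, 363, 79.9 and 104. The TRaWT subsets were far apart, while the TRaGS subsets overlapped. The difference was -2.36 ± 0.51, adjusted p = 0.0120, lost without TRaWT replicate 1 (adjusted p = 0.0616) or 2 (adjusted p = 0.0935).

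The other called genes had a lower Treg minus CD4 change in TRaGS. Klf3, a repressor of the Krüppel-like family (-1.01 ± 0.18, adjusted p = 0.000533), Smc4, a condensin subunit (-0.86 ± 0.14, adjusted p = 0.000144), and Resf1, a retroelement silencing factor (-1.01 ± 0.19, adjusted p = 0.000973), were called in every refit without an animal. So were mt-Nd4 (-0.69 ± 0.12, adjusted p = 0.000317) and Rps14 (-1.02 ± 0.19, adjusted p = 0.000744), whose differences shrank to -0.47 and -0.69 without TRaGS replicate 2. Of all genes called between genotypes, however, only Bcl2 kept its call without the filter on low counts. Without the animal block only Bcl2, Myo6 and Ccr2 kept theirs. The difference of mt-Nd4 was not called with DESeq2 (adjusted p = 0.117) or with quantile normalisation, which moved it to -0.36 (adjusted p = 0.0538). Smc4, Kbtbd11, Trib2, Ms4a4b and Foxp1 also lost their calls under quantile normalisation, and Ms4a4b with DESeq2. Kbtbd11 (-1.20 ± 0.26, adjusted p = 0.0152) was not called without TRaWT replicate 1 (adjusted p = 0.0551) or 2 (adjusted p = 0.215). Trib2, a pseudokinase (-1.23 ± 0.28, adjusted p = 0.0289), lost its call without TRaGS replicate 2 (adjusted p = 0.163) or 3, or TRaWT replicate 2 or 4. Ms4a4b, a membrane protein of T cells (-0.81 ± 0.19, adjusted p = 0.0304), lost it without TRaGS replicate 1 or 2 (adjusted p = 0.294), or TRaWT replicate 1, 2 or 4. Foxp1, a factor that keeps T cells quiescent (-0.85 ± 0.19, adjusted p = 0.0203), lost it without any animal other than TRaGS replicate 2, with adjusted p up to 0.198.

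The next genes of the naming rule, all on the higher side, did not pass as fitted here: Rora (1.53 ± 0.37, adjusted p = 0.0501), Id2 (1.37 ± 0.34, adjusted p = 0.0753), Itgb1 (1.05 ± 0.29, adjusted p = 0.193) and Lyn (5.16 ± 1.43, adjusted p = 0.200). Rora was 936, 1078, 975 and 847 in TRaGS Treg and 445, 271, 429.8 and 457 in TRaWT Treg, and its difference passed under 12 of 23 alternatives. Among these were edgeR (adjusted p = 0.0135), DESeq2 (adjusted p = 0.0330), quantile normalisation (adjusted p = 0.0146) and array weights (adjusted p = 0.0414), but not the refits without TRaGS replicate 2 (adjusted p = 0.202) or TRaWT replicate 2 (adjusted p = 0.438). Id2 passed under 7 of 23, among them edgeR (adjusted p = 0.0306) and DESeq2 (adjusted p = 0.0205), and Lyn with DESeq2 alone (adjusted p = 0.00678). Foxp3, Ikzf2 and Ctla4 were not called in this test: their Treg minus CD4 changes were 3.76, 2.94 and 3.61 in TRaWT and 3.27, 2.87 and 3.00 in TRaGS, with adjusted p of 0.874, 0.978 and 0.924.

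On the jointly scaled values the gene lists had these medians in TRaGS and TRaWT. Both medians were taken over list members that passed the count filter in the TRaGS libraries alone. Members above the filter only in TRaWT were left out. The TRaWT medians thus describe genes chosen by their TRaGS level, and may differ from medians over members chosen in TRaWT. The Treg core list stood at 2.36 and 2.90, the effector Treg list at 2.19 and 1.57 and the naive list at -0.96 and -0.49. The memory and activation list stood at 1.00 and 0.04, the chemokine receptors at 1.53 and -0.29 and the helper lineage factors at 0.97 and 0.03. Ribosomal protein genes were at -0.82 and -0.50, and mitochondrial mRNAs at -0.89 and -0.33. Among all genes tested the medians were 0.17 and 0.09. The difference of list medians between genotypes was not tested. Of the members, 1 Treg core gene (Gpr83), 2 naive genes (Klf3 and Foxp1) and 2 memory genes (Vim and Ccr2) were called in the test of single genes. The labels name no processing batch. The animal numbers run from 529490 to 529518 in TRaWT and are 529492, 530201, 534845 and 535574 in TRaGS. Whether the numbers follow the time of handling is not stated. If the animals of the 2 genotypes were handled at different times, genotype and handling cannot be told apart.

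**Figure D5:**
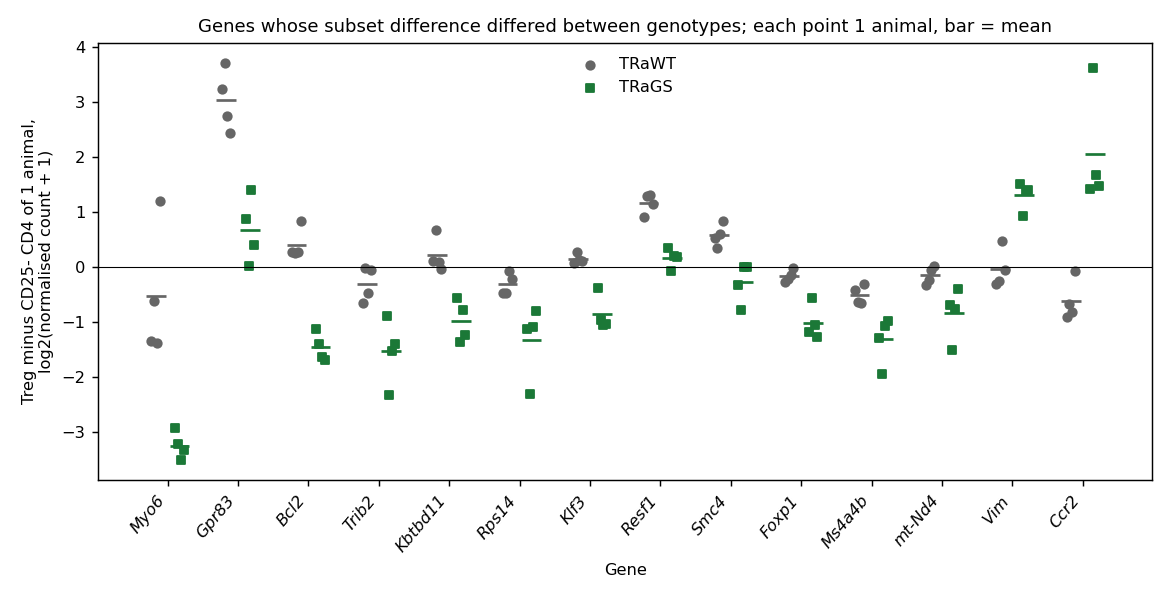
Treg minus CD25- CD4 difference on the log2(normalised count + 1) scale for the 14 genes whose difference was called between genotypes, with 1 point per animal (circles TRaWT, squares TRaGS, 4 each) and bars at the means. Bcl2 lies above 0 in all TRaWT animals and below 0 in all TRaGS animals, and Ccr2 shows the reverse.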

How the data were processed

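Spleen CD4+ cells of 4 TRaGS and 4 TRaWT mice were sorted into CD25+ Treg and CD25- CD4 cells, and 3' mRNA libraries were made with a QuantSeq forward kit, per the labels' protocols. The authors deposited signal values per gene, gene counts divided by a size factor, in 1 table for each subset, and the submitters' processing notes name GRCm38. Which aligner, counter and strand setting were used is not given in the sources used here, so reads of overlapping genes may be shared. Whole reads were recovered from the steps of the low values (100% of values whole within 0.001), and the 2 tables were joined on 47643 identifiers, 47224 with a symbol.

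Recovered reads were scaled with median-of-ratios size factors over the 8 TRaGS libraries, and over all 16 for the test between genotypes. In R 4.3.3, limma 3.58.1 was run with its variance trend on log2(normalised count + 1), two-sided, with genes of a mean of at least 5, the animal as a block and Benjamini-Hochberg adjustment at 0.05. The labels place both libraries of a pair in 1 animal. Deviations of same-animal libraries correlated at 0.00890, 0.0442, 0.0301 and 0.0354. Fold changes of low genes are understated by the pseudocount. Shares of reads were compared with exact permutation tests. All replicate pairs differed by more than sampling noise.

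Alternatives were other scalings, pseudocounts and filters, no block, edgeR 4.0.16, DESeq2 1.42.0, array weights, thinning to 2679119 reads, left-out gene groups, and each animal left out. Recovery was also tried on simulated data with 200 changed genes, and the shares that follow describe those data alone. Whether they hold for the real libraries, where both libraries of replicate 2 stood apart, was not tested. The TRaGS comparison (10652 to 10709 genes) recovered 7.65% of 2-fold and 41.6% of 4-fold changes, with 5.86% of its calls on simulated data false. The test between genotypes (10747 to 10790 genes) recovered 0.6% and 16.9%, with 6.45% false. Figures were drawn with matplotlib 3.10.9.

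Genes were named by rule: the markers of the sorted cells, Thra and Thrb; in each direction, the up to 12 largest changes without overlap and with a mean of at least 50 in the higher subset; up to 5 called members per list by adjusted p, or 2 where none was called; and up to 6 per direction between genotypes. Other members are named to account for a list, after their values were seen. Some members are counted but not reported here by name. The comparison, the lists and their members were chosen with earlier results of these data known.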

Additional observations from a re-analysis of the deposited data

Results flagged for a closer look

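In 17 of 244 groups of 4 libraries checked (6.97%), 1 library lay far from the other 3 by Dixon's test, where chance gives about 1 in 20. Of these, 10 were in CD4 libraries, and 5 in the CD4 library of replicate 2. That library held 7321 normalised counts of Rps14 (others 4531 to 4849), 69885 of mt-Nd4 (27336 to 33153), 982 of Vim (434 to 510.1), 1114 of Ighm (618 to 674) and 110.3 of Hba-a1 (0 to 1.14). In other CD4 libraries, Gata3 was 228 in replicate 1 (638 to 693), Ebi3 10.2 (1.07 to 2.52) and Nr1d2 50.1 (11.8 to 13.9) in replicate 3, and Cish 137 (89.1 to 94.5) and Lrrc32 31.5 (12.5 to 14) in replicate 4. Among Treg libraries, Igha was 166 in replicate 1 (1.05 to 25.3). Bicd1 was 31.5 (64 to 68.4) and Ccr2 481 (277 to 294) in replicate 2. Cd8b1 was 193 (225 to 229) and Tgfbr2 72.4 (129 to 133) in replicate 3. Il1rl1 was 342 (605 to 641) and Top2a 207 (124 to 133) in replicate 4.

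The Treg minus CD4 change of 14 genes differed between TRaGS and TRaWT by limma's interaction test. The differences, TRaGS minus TRaWT on the log2 scale, were -1.87 for Bcl2, -0.86 for Smc4, -0.69 for mt-Nd4, -1.01 for Klf3, -2.71 for Myo6, -1.02 for Rps14 and -1.01 for Resf1. They were -2.36 for Gpr83, -1.20 for Kbtbd11, -0.85 for Foxp1, -1.23 for Trib2 and -0.81 for Ms4a4b, and on the higher side 1.34 for Vim and 2.66 for Ccr2. Resf1, for which Treg exceeded CD4 in 4 of 4 TRaWT animals, stood at 2353, 3244, 2696 and 2819.9 in Treg and 1838, 3405, 2348 and 2489 in CD4 of TRaGS mice.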

How the results depend on the processing

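The TRaGS comparison had 19 alternatives, not all of which tested every gene. Of 97 called genes named by the rule, 58 lost their call under none of those that tested them. The other 39 were lost under 1 or more, while 6 genes that were not called passed under 1 or more. Called higher and lower, 334 and 367 in the comparison as reported, were 145 and 204 without the filter on low counts, 196 and 190 with no replicate block for the paired animals, 524 higher with DESeq2, and 169 and 180 lower with upper-quartile scaling and the tables as deposited. At least 2-fold changes (293 and 237) were 125 and 144 without the filter, 183 and 150 with no replicate block, 477 higher with DESeq2, and 99 and 108 lower with those scalings. Leaving out each animal gave 112 to 307 higher and 205 to 324 lower calls, and 104 to 245 and 156 to 187 of at least 2-fold. The 14 genes that differed between genotypes were 1 without the filter, 3 with no replicate block, 41 with DESeq2 and 9 to 29 with an animal left out. The difference in the share of other-cell markers, 0.0295 percentage points, was 0.0237 to 0.0348 with an animal left out and -0.00396 without the B and plasma cell lists. Smc4 reversed under quantile normalisation, at 0.41 (adjusted p = 1.41e-05) against -0.33. The causes of these changes were not tested. With 4 animals, genes of low count passed only at large changes.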

Other observations

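Called genes outside the gene lists were looked at after their values were seen. Pou2f2, encoding the octamer-binding factor OCT-2, was 2850.5, 4017, 2825 and 2515 in Treg and 573, 276, 769.6 and 729.9 in CD4 (2.46 ± 0.19, adjusted p = 1.20e-31 by limma). Dst, encoding the cytoskeletal linker dystonin, was 515, 294, 758 and 616 in Treg and 41.9, 22.9, 82 and 122 in CD4 (3.18 ± 0.40, adjusted p = 1.93e-12). Gbp7, a guanylate-binding protein, was 1723, 3175, 1782 and 1815 in Treg and 823, 724, 688 and 891 in CD4 (1.40 ± 0.19, adjusted p = 7.31e-11). Dnmt3a, a DNA methyltransferase, was 619, 626, 609.8 and 629 in Treg and 389, 55.6, 314 and 355 in CD4 (1.48 ± 0.29, adjusted p = 4.10e-05).

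On the lower side, Cd40lg, the ligand by which helper T cells activate B cells, was 61.4, 32.9, 53.5 and 82.1 in Treg and 259.8, 938, 418 and 195 in CD4 (-2.76 ± 0.44, adjusted p = 5.12e-08). Pde3b, a phosphodiesterase that degrades cyclic AMP, was 88.6, 58.9, 91.3 and 102 in Treg and 293, 1045, 610.2 and 558 in CD4 (-2.75 ± 0.36, adjusted p = 1.60e-11), and Pde4b (-1.99 ± 0.29, adjusted p = 2.43e-09) was lower too. Tmsb4x, which binds actin monomers, was 6350.2, 8524, 5333 and 5741 in Treg and 18963, 47347, 6536 and 8915 in CD4 (-1.25 ± 0.11, adjusted p = 2.66e-23).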
